A study of Mus musculus and Callithrix jacchus with 22 samples.

Results

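Mature oligodendrocytes (MOL) were the most numerous annotated cell type among the pooled adult marmoset cortex cells of these single-cell chromatin accessibility data, although MFOL, the stage before them, outnumbered them in the 3 Y8 libraries. They were taken as every marmoset cell that the deposited annotation names MOL, which gave 2477 of 7512 adult cells, or 2477 of 35064 cells of the whole series. All of them lay in cluster 0 of the authors' clustering, that cluster held 0 cells of any other name, and 0 newborn marmoset cells and 0 of 19145 mouse cells carried the name. The assay (scATAC-seq) uses a transposase that cuts and tags open DNA, so each cell is described here by its number of reads and by its number of peaks, the accessible sites in which it had at least 1 read. The marmoset libraries came from cortex of wild-type Callithrix jacchus, 3 labelled Y8 and 2 labelled Y7 for the adults and 5 labelled Day0 for the newborns, whose 8407 cells served only to check where the name occurs. The study's methods describe somatosensory and motor cortex, taken apart with papain, from which living cells were sorted, whereas the labels name somatosensory cortex alone and carry a general protocol for sorting labelled projection neurons. The sources used here do not give the number of animals behind a library or how doublets were treated. The study's main text gives the adult ages of the labels, whereas a legend gives another. Replicates may therefore share an animal, p-values measure the spread between these libraries only, and age label, animal and day of preparation cannot be told apart. Shares describe the cells that were kept, which need not mirror the tissue.

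Oligodendrocytes wrap the axons of the central nervous system in myelin, the lipid-rich sheath that speeds nerve conduction and supports the axon. They arise from oligodendrocyte precursor cells (OPC), which still divide, and pass through committed precursors (COP), newly formed oligodendrocytes (NFOL) and myelin-forming oligodendrocytes (MFOL) before they become MOL. Mature cells maintain finished sheaths and express genes of compact myelin, such as Mbp, which encodes myelin basic protein, and Mog, which encodes a protein of the outermost myelin surface. The tables used here hold no values per gene, so the name MOL could not be checked against Mbp and Mog. The study assigned names from accessibility around marker genes, averaged over the cells of each cluster, so that the name belongs to the cluster and not to the single cell. Its methods also split each cluster by time point and dropped small ones, so the absence of MOL among newborn cells holds for the cells that were kept, and no limit on their share was computed.

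The share of MOL differed between the adult labels, and it was lower in every Y8 library than in both Y7 libraries. The Y8 libraries held 326 MOL of 1570 cells (20.8%), 366 of 1643 (22.3%) and 353 of 1463 (24.1%). The Y7 libraries held 850 of 1627 cells (52.2%) and 582 of 1209 (48.1%). The 95% Wilson intervals, which cover counting error only, spanned 18.8% to 26.4% over the Y8 libraries and 45.3% to 54.7% over the Y7 libraries, and the groups did not overlap. The mean was 22.4% ± 1.68 in Y8 libraries (SD, n = 3) and 50.2% ± 2.90 in Y7 libraries (SD, n = 2), a difference of -27.8 percentage points. The exact permutation test of 3 against 2 libraries was two-sided and gave p = 0.1 (adjusted p = 0.1 over the share, median reads and median peaks of MOL), the smallest p it can give, so no difference between the labels could pass 0.05. Over the 5 adult libraries the mean was 33.5% ± 15.3 (SD). Within a label the libraries lay closer together. Fisher's exact test on the cells of a pair compares those libraries and not conditions, and it gave p = 0.0334 for the Y7 pair. The same exact test gave p = 0.303, 0.233 and 0.0293 for the Y8 pairs 1 and 2, 2 and 3, and 1 and 3.

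The Y8 libraries had a larger share of MFOL, and also of the earlier stages and of astrocytes, where their share of MOL was smaller. The mean share in Y8 against Y7 libraries was 12.9% against 3.91% for NFOL and 3.37% against 0.761% for COP. It was 10.1% against 6.72% for OPC and 10.2% against 6.41% for astrocytes. These means of other types were not tested. MFOL were 37.4%, 35.5% and 33.6% of cells in Y8 libraries 1 to 3, against 7.44% and 11.7% in Y7 libraries 1 and 2. The sum of MOL and MFOL was 58.2%, 57.8% and 57.7% in the Y8 libraries, against 59.7% and 59.9% in the Y7 libraries. Over cells of all depths the sum as a share of all cells thus differed by only -1.91 percentage points. MFOL alone differed by 25.9 and MOL alone by -27.8. The near-equal sum holds with neurons in the denominator, which were a larger part of the Y7 libraries. Since the lineage was larger in the Y8 libraries, the sum was a smaller part of the lineage there. In cells with at least 2000 reads the sum differed more, by -6.34 percentage points, beside -30.9 for MOL. These differences had p = 0.1 each in the two-sided exact permutation test (n = 3 and 2), the smallest possible. With libraries of a label pooled, the gap in the sum depended on depth. The sum was 65.8% in Y8 and 58.5% in Y7 below 1500 reads. It was 63.1% against 76.5% from 3000 to below 4000 reads, and 38.6% against 65.8% from 4000 to below 6000. From 6000 reads upwards it was 11.1% against 19.3%. In the bins between 1500 and 3000 reads it was 74.9% and 72.5% in Y8, against 73.0% and 75.3% in Y7. These values by depth were not tested. Of all cells in the oligodendrocyte lineage, MOL made up 25.3%, 25.9% and 28.6% in the Y8 libraries, against 74.0% and 67.1% in the Y7 libraries. The lineage itself was a larger part of the Y8 libraries, at 82.2% to 85.9% of cells, against 70.6% to 71.8% in the Y7 libraries. Neurons were 4.44% to 6.62% of cells in Y8 libraries and 21.6% to 23.2% in Y7 libraries, and the part of this difference in the MOL share was not tested.

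**Figure D1:**
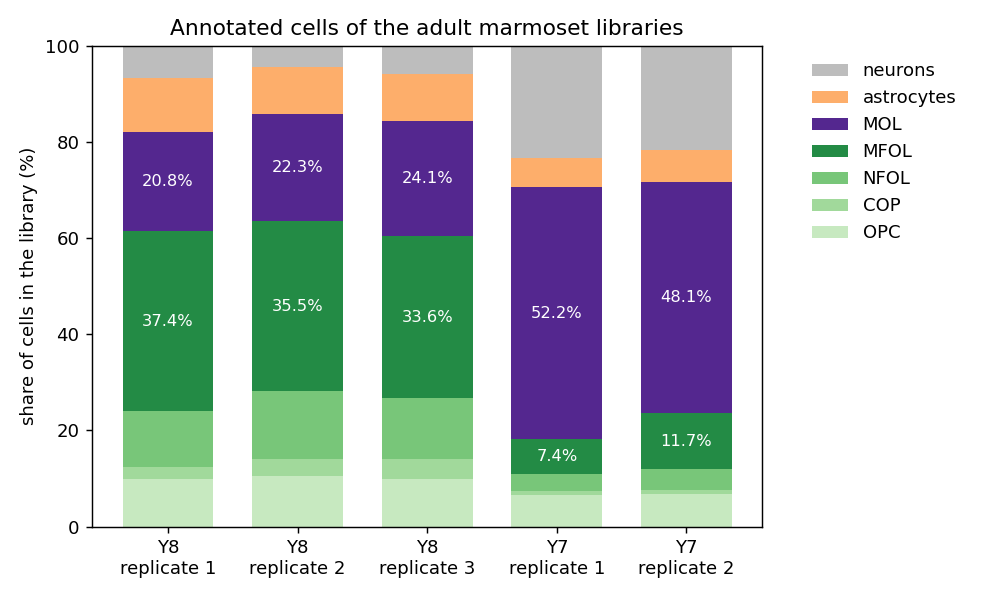
Share of cells (%) by annotated type in each adult marmoset library, with the oligodendrocyte stages stacked from OPC at the bottom to MOL, then astrocytes and neurons. MOL and MFOL shares are printed in the bars, and MOL take 20.8% to 24.1% of the Y8 libraries and 48.1% to 52.2% of the Y7 libraries. Over cells of all depths, and as a share of all cells, the height of MOL plus MFOL hardly differs. Neurons take a larger part of the Y7 libraries, and the other glial types a larger part of the Y8 libraries.

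Set against earlier stages of the same library, MOL outnumbered NFOL and OPC in 5 of 5 libraries and MFOL in 2 of 5. For each MFOL cell there were 0.555, 0.628 and 0.719 MOL cells in Y8 libraries 1 to 3, against 7.02 and 4.10 in Y7 libraries 1 and 2. The Y8 libraries thus all held fewer MOL than MFOL and the Y7 libraries all held more. On the log2 scale this number ratio averaged -0.67 in Y8 and 2.42 in Y7 libraries, a difference of -3.09 (p = 0.1, exact permutation test, n = 3 and 2, the smallest possible). For each NFOL cell, a stage just past the precursors, there were 1.78, 1.58 and 1.89 MOL cells in Y8 libraries, against 15.2 and 11.0 in Y7 libraries. For each OPC, the dividing stage, there were 2.12, 2.13 and 2.42 MOL cells in Y8 libraries, against 7.94 and 7.01 in Y7 libraries. COP, the committed precursors, were few, with 40, 58 and 59 cells in Y8 libraries and 14 and 8 in Y7 libraries. For each COP there were 8.15, 6.31 and 5.98 MOL cells in Y8 libraries, against 60.7 and 72.8 in Y7 libraries, and this ratio was not tested. Types of the same library share their source, so each ratio was tested within libraries by a two-sided exact sign-flip permutation test, whose smallest p with 5 libraries is 0.063. The mean log2 number ratio was 1.96 ± 1.59 over NFOL and 1.85 ± 0.964 over OPC (SD, n = 5, p = 0.063 and adjusted p = 0.0938 each in the exact permutation test). Over MFOL it was 0.57 ± 1.72 (SD, n = 5, p = 0.5 and adjusted p = 0.5 in the same exact permutation test). That mean rested on the Y7 libraries. It was -0.67 in Y8 libraries alone, and 0.0097 without Y7 replicate 1.

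**Figure D2:**
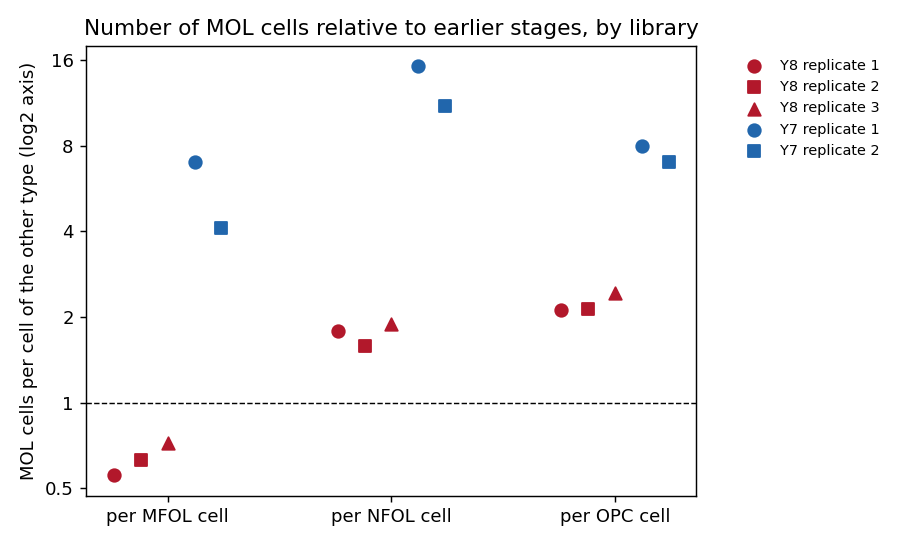
Number of MOL cells per MFOL, NFOL and OPC cell of the same library (log2 axis), 1 point per adult library, Y8 in red and Y7 in blue. The dashed line marks equal numbers, and only the ratio to MFOL lies below it, at 0.555 to 0.719 in the 3 Y8 libraries.

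MOL were shallow cells, close to the lower end of the reads that the authors kept, but this was not particular to them. The median over all adult cells was 2663.5 reads in astrocytes and 2143.5 in MFOL, against 4616 in OPC and 7250 in neurons. The lowest MOL cell had 1000 reads, the median over all 2477 was 2854 and the highest had 14257. In Y8 libraries 1 to 3 the median MOL cell had 2475, 2249 and 2471 reads, against 3101.5 and 3206 in Y7 libraries 1 and 2. The labels did not overlap. The difference in mean of these medians was -755 reads (exact permutation test of 3 against 2 libraries, p = 0.1 and adjusted p = 0.1, again the smallest possible). Median peaks per MOL cell were 1303.5, 1198 and 1328 in Y8 libraries, against 1636.5 and 1660 in Y7 libraries, a difference of -372 with the same p. Both differences were smaller when only cells with at least 2000 reads were kept, at -387 reads and -190 peaks (p = 0.1 each, exact permutation test, n = 3 and 2). That limit removed 32.5% to 40.2% of MOL in Y8 libraries and 17.7% to 20.1% in Y7 libraries. It cuts the compared depth unequally, so the smaller values cannot be told apart from the cut. In cells with at least 1000 peaks the difference was -407.5 reads and the exact permutation test gave p = 0.2 (n = 3 and 2). The Y8 libraries as a whole were shallower too, with 2557.5 to 2618 median reads per cell, against 3274 to 3338 in the Y7 libraries. These medians mix types whose shares differed between the labels. By type, OPC medians were lower in every Y8 library (4455.5 to 4590 reads, against 4660 and 5094). So were astrocyte medians (2536 to 2608 reads, against 2957.5 and 2991). The labels overlapped in neurons (7249.5, 7578 and 6604 reads, against 7919.5 and 6419). They also overlapped in NFOL (3644, 3412 and 3424 reads, against 1816.5 and 3480). MFOL did not follow either. Their median reads were 2041, 2195 and 2287 in Y8 libraries, against 1852 and 2103 in Y7 libraries, so that the labels overlapped and the difference was 197 reads in the opposite direction (p = 0.3, exact permutation test, n = 3 and 2). It was 71.3 reads without Y7 replicate 1 and 322 without Y7 replicate 2. Cells under 1500 reads made up 17.8% to 20.8% of MOL in Y8 libraries and 7.22% to 9.65% in Y7 libraries. At the upper end, 39 MOL cells (1.57%) had at least 8000 reads, with 0.820% to 1.98% in any library.

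MOL varied among themselves less than NFOL did and more than MFOL. The read count at the upper quartile was 2.03 to 2.22 times that at the lower quartile in MOL of Y8 libraries, and 1.91 to 2.00 times in MOL of Y7 libraries. The same ratio was 1.61 to 1.83 in MFOL and 3.63 to 4.54 in NFOL over the 5 libraries, and in each library MOL lay between them. For OPC it was 1.73 to 2.59, which overlapped the range of MOL. NFOL had a broad upper range, with 10.7% to 26.4% of cells at 8000 reads or more. In the plot of reads per cell, the upper quartile of MOL accordingly lies above that of MFOL and below that of OPC in 5 of 5 libraries.

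**Figure D3:**
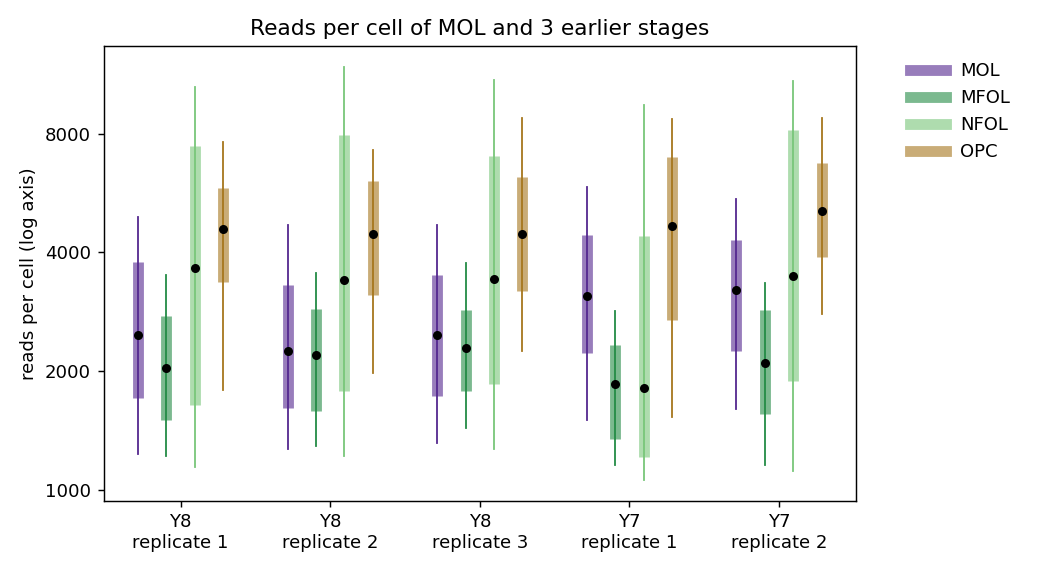
Reads per cell (log axis) of MOL, MFOL, NFOL and OPC in each adult library. Points are medians, thick bars run from the lower to the upper quartile and thin lines from the 10th to the 90th percentile. The MOL median lies above MFOL and below OPC in 5 of 5 libraries, and above NFOL only in Y7 replicate 1.

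Within libraries, MOL had more reads per cell than MFOL and fewer than OPC in 5 of 5 libraries. The MOL median was 1.21, 1.02 and 1.08 times that of MFOL in Y8 libraries 1 to 3, and 1.67 and 1.52 times in Y7 libraries 1 and 2. The excess over MFOL was thus smaller in every Y8 library, with a mean log2 ratio of 0.14, against 0.68 in Y7 libraries (a difference of -0.53, p = 0.1, exact permutation test, n = 3 and 2, the smallest possible). That difference was -0.22 in cells with at least 2000 reads and -0.26 in cells with at least 1000 peaks, with the same p in the exact permutation test. Both limits act on the depth that is compared, so these smaller values cannot be told apart from the cut. Against OPC the MOL median was 0.539, 0.504 and 0.555 times as large in Y8 libraries, and 0.666 and 0.629 times in Y7 libraries. OPC, whose chromatin was sampled most deeply of the 4 stages compared, had medians of 4590, 4459.5 and 4455.5 reads in Y8 libraries and 4660 and 5094 in Y7 libraries. The mean log2 ratio of median reads was 0.36 ± 0.309 over MFOL and -0.80 ± 0.165 over OPC (SD, n = 5, p = 0.063 and adjusted p = 0.0938 each, exact sign-flip permutation test). Over NFOL it was -0.20 ± 0.573 (SD, n = 5, p = 0.5625, adjusted p = 0.5625 in the same exact permutation test), below 0 in 4 libraries. The exception was Y7 replicate 1, where the 56 NFOL cells had a median of 1816.5 reads, against 3412 to 3644 in the other libraries. Without that library the mean was -0.44, and without Y8 replicate 2 it was -0.094. In cells with at least 2000 reads, MOL had fewer reads than NFOL in 5 of 5 libraries, with a mean of -0.66 ± 0.249 and -0.38 in Y7 replicate 1 (SD, n = 5, p = 0.063, exact permutation test). This limit cuts the reads that are compared. In Y7 replicate 1 it removed 55.4% of NFOL but 20.1% of MOL, so the value there cannot decide the exception. In cells with at least 1000 peaks the mean was -0.60. The mean log2 ratios of median peaks were 0.35 ± 0.297 over MFOL, -0.33 ± 0.598 over NFOL and -0.77 ± 0.156 over OPC (SD, n = 5). Their exact permutation tests gave p = 0.063, p = 0.1875 and p = 0.063 (n = 5), and the MOL median was higher in 5, 1 and 0 libraries. The ratio of peaks over NFOL was -0.58 without Y7 replicate 1, and -0.79 in cells with at least 2000 reads, where it was below 0 in 5 of 5 libraries (p = 0.063, exact permutation test, n = 5). The same unequal cut by reads applies to that value.

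The number of peaks follows the number of reads, so peaks were also compared between cells of like depth, in bins of 0.25 on the log2 scale of reads. A median MOL cell had 52.0 to 53.4 peaks for every 100 reads, and MFOL had 52.5 to 53.5. Across MOL cells of a library, log2 peaks rose with log2 reads with a slope of 0.932 to 0.953, so that deeper cells gained slightly fewer new peaks per read. At matched reads MOL and MFOL were nearly equal in peaks. MOL had 1.002, 1.01 and 1.001 times as many as MFOL in Y8 libraries and 1.02 times in each of the Y7 libraries. The mean log2 ratio was 0.016 ± 0.0145 (SD, n = 5, p = 0.063, adjusted p = 0.0938, exact sign-flip permutation test), against 0.35 without matching. It was 0.014 with a linear fit, 0.016 in cells with at least 2000 reads and 0.015 in cells with at least 1000 peaks. Each of these gave p = 0.125 in the exact sign-flip permutation test (n = 5), so the smallest possible p was not kept. Against OPC the ratio at matched reads was 0.980, 0.981 and 0.988 in Y8 libraries, and 0.994 and 0.987 in Y7 libraries. Its mean of -0.020 ± 0.00835 on the log2 scale was below 0 in 5 of 5 libraries (p = 0.063, adjusted p = 0.0938, exact permutation test, n = 5). With bins of 0.5 it was -0.046, and with a linear fit of log2 peaks on log2 reads it was -0.016. NFOL had more peaks than MOL for the same reads in 4 libraries, with a ratio of MOL to NFOL of 0.927, 0.929 and 0.937 in Y8 libraries, and 0.943 in Y7 replicate 2. Y7 replicate 1 stood apart at 1.01 with these bins. The mean log2 ratio to NFOL was -0.076 ± 0.0529 (SD, n = 5, p = 0.125, adjusted p = 0.125, exact permutation test). A linear fit of log2 peaks on log2 reads within each library gave -0.10 ± 0.020, below 0 in 5 of 5 libraries (SD, n = 5, p = 0.063, exact permutation test). In the comparison with NFOL, matching kept 95.5% to 97.8% of the MOL cells of Y8 libraries, but only 21.3% and 29.4% of those of Y7 libraries. With MFOL it kept 91.8% to 96.2% in Y8 libraries, and 44.5% and 70.6% in Y7 libraries 1 and 2. With OPC it kept 60.1% to 86.9% in Y8 libraries, and 71.6% and 69.4% in Y7 libraries.

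**Figure D4:**
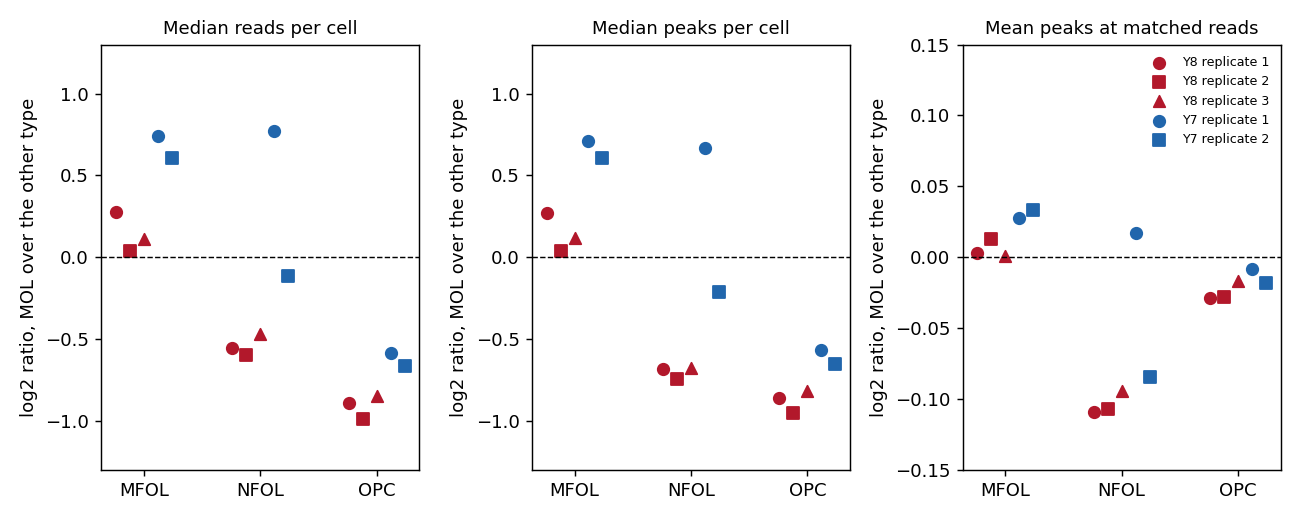
Log2 ratio of MOL over MFOL, NFOL and OPC in each adult library for median reads, median peaks and mean peaks at matched reads, Y8 in red and Y7 in blue. The vertical axis of the matched comparison is narrower, and there the ratios to MFOL lie between 0.0011 and 0.033, whereas those of median peaks lie between 0.039 and 0.71.

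The higher reads of MOL than of MFOL can also be read as shares. Among MOL and MFOL cells with at least 3000 reads, MOL made up 54.3%, 50.0% and 51.3% in Y8 libraries 1 to 3, against 98.7% and 91.5% in Y7 libraries 1 and 2. Below 3000 reads MOL made up 29.4%, 34.6% and 38.2% in Y8 libraries, against 77.6% and 69.6% in Y7 libraries. The share was higher in the deeper cells of 5 of 5 libraries, by 19.3 ± 4.88 percentage points (SD, n = 5). This restates the difference in reads between the types, with a split chosen after the values were seen. Its exact sign-flip permutation test (p = 0.063, n = 5, the smallest possible) is therefore no separate support. MFOL thinned out with depth. From 4000 to below 6000 reads the Y8 libraries held 57, 45 and 48 MOL beside 24, 28 and 31 MFOL, and the Y7 libraries 194 and 144 MOL beside 1 and 4 MFOL. From 6000 reads upwards the Y8 libraries held 15, 15 and 20 MOL beside 3, 9 and 7 MFOL, and the Y7 libraries 78 and 37 MOL beside 0 MFOL. In Y7 libraries the MOL share of the pair rose at every step of depth, with 68.9% in the shallowest bin and 100% in the deepest of replicate 1, and 57.5% and 100% in those of replicate 2. In Y8 libraries it showed no such order below 3000 reads, where it lay between 23.4% and 52.1%, and the deepest bin of Y8 replicate 1 held only 18 cells of the pair.

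The difference between the labels was present at every depth. In each of 6 bins of reads, every Y8 library had a lower MOL share of all cells than every Y7 library, and in the same 6 bins every Y8 library had a higher MFOL share. In the shallowest bin, from 1000 to below 1500 reads, MOL were 21.4%, 25.7% and 31.0% of all cells in Y8 libraries, against 41.0% and 32.8% in Y7 libraries. From 3000 to below 4000 reads they were 24.8%, 27.0% and 26.1% in Y8 libraries, against 72.2% and 67.0% in Y7 libraries. Above 6000 reads, where neurons, NFOL and OPC were frequent, MOL were 7.39%, 6.61% and 10.3% of cells in Y8 libraries and 21.4% and 15.9% in Y7 libraries. The difference in mean share (Y8 minus Y7) was -10.9 percentage points in the shallowest bin and -10.6 in the deepest, and lay between -43.6 and -26.1 in the bins between them. The depth of MOL cells, though not that of MFOL cells, went together with the age label in these libraries. The parts of depth and label in the naming of MOL and MFOL were not tested.

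**Figure D5:**
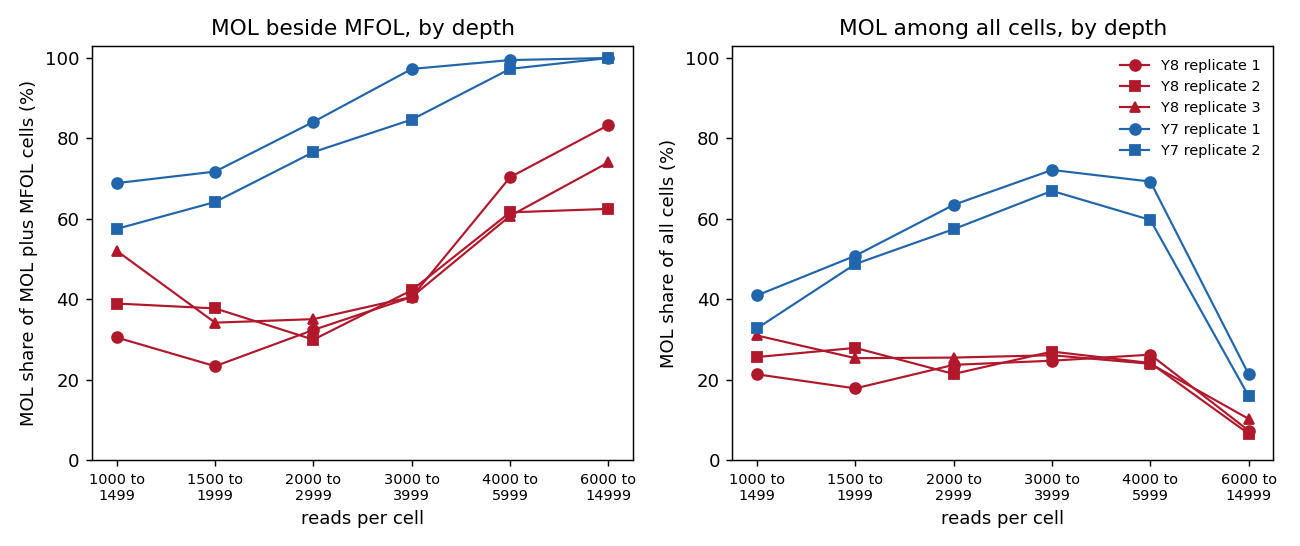
MOL as a share (%) of MOL plus MFOL cells on the left and of all cells on the right, in 6 bins of reads per cell, with 1 line per adult library, Y8 in red and Y7 in blue. The Y8 lines lie below both Y7 lines in all 6 bins of both panels, and in the left panel the Y7 lines end at 100% in cells of 6000 reads or more.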

How the data were processed

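In the deposited tables each cell had its library, annotated type, cluster and 2 whole-number counts without normalization, the reads and the peaks with a read. The authors removed adapters, aligned the marmoset reads to CalJac3 with Bowtie2, removed mitochondrial, unpaired, low-quality and duplicate reads, sampled libraries to a similar depth per cell, called peaks with MACS2 in Scasat, brought peaks to 1 width and kept cells within limits on reads and peaks. These limits truncate the counts and the sampling narrows depth differences, so medians describe kept cells. The submitters' processing notes name MACS2 and mm10. Adult libraries held 1209 to 1643 cells and 5139726 to 7213483 reads, and their cells 1000 to 14990 reads.

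Cells were counted per library and libraries weighed equally. Medians needed 10 cells of a type. Peaks at matched reads were differences in mean log2 peaks within bins of log2 reads holding at least 5 cells of both types. Exact permutation tests (Python 3.11.15, numpy 2.4.6, scipy 1.17.1) were two-sided. Benjamini-Hochberg adjustment ran over the 3 comparisons of a measure within libraries. Between labels it ran over the share, median reads and median peaks of MOL. Comparisons added after seeing the data were not adjusted. The routines were tested on simulated data. Alternatives were limits of 2000 reads or 1000 peaks, other centres, bins, fits and denominators, each age label alone, the replicate number as a block, and leaving out libraries. Averaging Y8 replicates 2 and 3 was added after seeing the data, as were the comparisons between labels that involve MFOL and the split by reads. No gene was named by value, and every cluster with MOL cells was to be named. The type, comparisons and markers were chosen with earlier results of these data known. Mouse cells were used only to count names.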

Additional observations from a re-analysis of the deposited data

Results flagged for a closer look

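The log2 number ratio of MOL to MFOL differed by -3.09 between the adult labels (Y8 minus Y7). It drew attention because all 3 Y8 libraries had fewer MOL than MFOL and both Y7 libraries had more. The exact permutation test of that difference gave p = 0.1 (n = 3 and 2), which is the smallest it can give, so the difference is not established against the spread of the libraries.

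Of 20 quantities examined for a library that stands apart among the 5 adult libraries, 1 showed one. At matched reads the log2 ratio of peaks of MOL over NFOL was 0.017 in Y7 replicate 1, whereas the other libraries lay between -0.11 and -0.085. The gap was 0.805 of the whole range, above the critical value of 0.71. The exception depended on how depth was matched. In that library the ratio was 0.0083 with bins of 0.5, -0.0064 in cells with at least 1000 peaks and -0.072 with a linear fit, and no bin could be matched there in cells with at least 2000 reads. Chance alone gives such a gap in about 1 in 20 groups. In that library 21.3% of MOL cells could be matched, and its NFOL numbered 56, of which 55.4% had under 2000 reads, against 26.4% to 32.2% elsewhere. The part of that depth in the value was not tested.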

How the results depend on the processing

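Of 240 recomputed values, 237 kept their direction and side of the threshold, which no p could pass in these designs, so this says nothing of significance. The exceptions were 3 reversed values. In Y8 libraries alone the mean log2 number ratio of MOL to MFOL was -0.67. In Y7 libraries alone the log2 ratios of MOL over NFOL were 0.33 for median reads and 0.23 for median peaks. The cause was not tested. With 1 library left out, the MOL share averaged 28.8% to 36.7% and its difference between labels (Y8 minus Y7) ranged from -29.9 to -25.7 percentage points. With the replicate number as a block that difference was -28.7, and no p under 0.5 was possible. The labels do not say whether a shared replicate number pairs libraries. The differences between replicates 1 and 2 in the shares of 11 types correlated across the labels with r = -0.53. This describes types within 1 difference per label and cannot decide whether the libraries are paired. In chi-square tests on cells, type composition differed between Y8 replicates 1 and 2 (p = 0.00457) and within the Y7 pair (p = 1.89e-05). The chi-square test gave p = 0.258 for Y8 replicates 2 and 3 and p = 0.100 for replicates 1 and 3, which does not establish agreement. In the MOL share alone, Y8 replicates 1 and 3 had p = 0.0293 in Fisher's exact test. Adult libraries shared 1 to 5 cell barcodes a pair, so they were counted as separate libraries. Barcodes cannot show whether libraries came from different animals. With replicates 2 and 3 averaged the difference in MOL share was -28.2 percentage points. Age labels with 3 and 2 libraries, and no values per gene, limit every comparison here.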

Other observations

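Relative to neurons, MOL were more numerous in the Y8 libraries, although their share of cells was lower there. There were 3.13, 5.01 and 4.15 MOL cells for each neuron in Y8 libraries 1 to 3, against 2.25 and 2.23 in Y7 libraries 1 and 2, and the labels did not overlap. Relative to astrocytes, the glia that support synapses and vessels, the order was the opposite. There were 1.85, 2.30 and 2.49 MOL cells for each astrocyte in Y8 libraries, against 8.42 and 7.28 in Y7 libraries. These ratios were not tested. The direction in which MOL differ between the labels thus depends on the cells they are counted against, since neurons numbered 104, 73 and 85 in Y8 libraries and 378 and 261 in Y7 libraries.

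MOL supplied a smaller part of the reads than of the cells in each adult library, with 17.4%, 17.5% and 19.6% of the reads of Y8 libraries and 41.1% and 38.6% of those of Y7 libraries. Among the annotated types with at least 10 cells, the median reads of MOL ranked 2nd, 2nd and 3rd from the lowest in Y8 libraries, of 10 types each, and 5th of 11 and 3rd of 10 in Y7 libraries.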
